A study of Arabidopsis thaliana with 12 samples.

Results

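Transcripts of 8 Arabidopsis genes for the breakdown of branched-chain amino acids and lysine were measured by RNA-seq in the shoots of WT and *tmt2* seedlings. The 8 were taken by locus from the 22953 genes of the deposited table: *BCAT-2* (AT1G10070), *BCE2* (AT3G06850), *IVD* (AT3G45300), *MCCA* (AT1G03090), *MCCB* (AT4G34030), *ETFQO* (AT2G43400), *D2HGDH* (AT4G36400) and *LKR/SDH* (AT4G33150). All 8 had enough counts to be tested. All plants were Columbia-0, in 4 groups of 3 replicates. WT seedlings (WT) and *TMT2* knockout seedlings (*tmt2-S*) grew on MS medium at 1/2 strength, and the same genotypes also grew on that medium plus 1% sucrose (named WT-Suc and *tmt2-L-Suc*). According to the labels *tmt2-S* was 7 days old and the remaining groups 5 days old, while the study's text counts from germination and gives lower numbers. *tmt2-S* was thus the only group of its age, and in every comparison with it the genotype or the sucrose cannot be told apart from the age. *tmt2-S* is the study's name for *tmt2* seedlings arrested before true leaves, and they were sampled later because they grew more slowly. Its name *tmt2-L* stands for *tmt2* seedlings that develop normally. By these names *tmt2-S* and *tmt2-L-Suc* also differ in arrest, which cannot be told apart from the sucrose and the age.

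*tmt2* is a single T-DNA line with insertions in the last exon of *TMT2*, a vacuolar sugar transporter. Counts of *TMT2* do not check the genotype, because the transcript before the insertion is still made, and its FPKM was 21.8 to 25.4 in *tmt2-S*, 10.8 to 24.8 in *tmt2-L-Suc* and 7.04 to 9.36 in the WT. FPKM is the read number scaled by transcript length and by sequencing depth, and it is the scale of all expression levels given here. The total expected count per library was 20187961 to 21370053. The study calls the replicates behind a plot of its expression values biological, but neither it nor the labels say whether they were separate cultures, so the p-values measure the spread between these libraries. In bulk tissue, a change in RNA per cell and a change in the share of a cell type cannot be told apart. The 5 photosynthetic shoot markers were abundant in every library, with a summed FPKM of 85329 to 91074 in the WT and 61594 to 81865 in *tmt2-S*, while the 8 root markers summed to at most 10.4. The 10 seed storage genes summed to 437.1 in WT-Suc replicate 2 and to at most 15.7 in each other library. In *tmt2-S* this sum was 0.25 to 0.75, against 5.23 to 15.7 in the WT. WT-Suc replicate 2 stood apart in this sum, and for some of the results that use it, values without it are also given.

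Plants break down leucine, isoleucine and valine largely in mitochondria. A transaminase removes the amino group, the branched-chain α-ketoacid dehydrogenase (BCKDH) complex forms an acyl-CoA, and isovaleryl-CoA dehydrogenase (IVD) and methylcrotonyl-CoA carboxylase then act on the leucine product. Lysine is broken down by the bifunctional LKR/SDH, and a later product, D-2-hydroxyglutarate, is oxidized by D2HGDH. IVD and D2HGDH hand their electrons to the electron transfer flavoprotein, from which ETFQO passes them to the respiratory chain. These routes are known in Arabidopsis as an alternative source of electrons for respiration when carbohydrates are short.

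In TAIR10.1, *BCAT-2* lies on chromosome 1 from 3288087 to 3290471 and *MCCA* on chromosome 1 from 739544 to 744184. *ETFQO* lies on chromosome 2 from 18021109 to 18025292, *IVD* on chromosome 3 from 16621452 to 16625043 and *BCE2* on chromosome 3 from 2157908 to 2160669. *MCCB* (16301027 to 16304099), *D2HGDH* (17197188 to 17200932) and *LKR/SDH* (15985174 to 15991633) lie apart from each other on chromosome 4. Genes on the opposite strand share 12.4% of the exon bases of *MCCA* and 9.2% of those of *BCAT-2*, and 2.7% or less of those of the other members. The sources used here do not say whether counting used the strand, so reads from these stretches cannot be assigned to a strand. The paralogue *BCAT1* ends 794 bases before *BCAT-2* with no gene between them. The longest match between a *BCAT-2* transcript and that of another gene had 65.7% identity over 928 bases.

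The promoters of 4 members are shown: *BCAT-2* and *IVD* with the largest rises described below, *MCCB* with a smaller one, and *D2HGDH* with the smallest. Each is the 250 bases before the annotated start of the gene, 5′ to 3′ on the gene's strand, from the TAIR10.1 genome: chr1:3287837-3288086 on the plus strand for *BCAT-2*, chr3:16625044-16625293 on the minus strand for *IVD*, chr4:16300777-16301026 on the plus strand for *MCCB* and chr4:17196938-17197187 on the plus strand for *D2HGDH*. Capitals mark ACGT, the core of the sites of bZIP transcription factors, and TATCCA, an element known from sugar-responsive promoters of rice.
BCAT-2: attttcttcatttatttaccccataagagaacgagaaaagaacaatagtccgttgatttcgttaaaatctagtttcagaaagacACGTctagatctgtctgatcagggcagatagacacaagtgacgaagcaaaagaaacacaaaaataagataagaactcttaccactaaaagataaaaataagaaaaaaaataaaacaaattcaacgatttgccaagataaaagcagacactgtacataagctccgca
IVD: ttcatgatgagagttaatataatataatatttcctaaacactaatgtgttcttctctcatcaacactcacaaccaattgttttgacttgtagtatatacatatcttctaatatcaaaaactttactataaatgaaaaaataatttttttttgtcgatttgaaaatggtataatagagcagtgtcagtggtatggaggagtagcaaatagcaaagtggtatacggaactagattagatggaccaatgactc
MCCB: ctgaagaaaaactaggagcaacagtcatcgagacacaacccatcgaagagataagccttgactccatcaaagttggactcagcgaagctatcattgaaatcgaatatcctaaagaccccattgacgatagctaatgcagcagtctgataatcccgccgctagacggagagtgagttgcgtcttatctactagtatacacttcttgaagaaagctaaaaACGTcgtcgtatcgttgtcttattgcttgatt
D2HGDH: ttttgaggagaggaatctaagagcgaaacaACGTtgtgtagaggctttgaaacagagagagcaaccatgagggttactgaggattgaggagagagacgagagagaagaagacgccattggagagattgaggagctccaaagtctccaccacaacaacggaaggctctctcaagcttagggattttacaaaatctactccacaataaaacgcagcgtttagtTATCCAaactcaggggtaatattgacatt

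Both strands were searched. ACGT was present before 3 of the 8 members (*BCAT-2*, *MCCB* and *D2HGDH*) and before 44.1% of 27443 protein-coding genes, and TATCCA before 2 members (*D2HGDH* and *LKR/SDH*) and 13.6% of all. The G-box CACGTG, which contains ACGT, was before 0 members and 6.49% of all genes. ACTCAT, the element of the proline dehydrogenase promoter, was before 0 members and 12.3% of all genes. The members that rose the most thus shared none of these letters in this window, since *IVD* had none of the 4 motifs and *BCAT-2* had only ACGT.

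The comparison of *tmt2-S*/WT asks which of these genes differ when the mutant grows without sucrose. All 8 members were higher in *tmt2-S* (adjusted p ≤ 0.05 in the quasi-likelihood test of edgeR, adjusted after Benjamini-Hochberg over all genes), against 20.7% of the 18506 genes tested. Of these, 7 were DEGs (|log2FC| ≥ 1.2 and adjusted p ≤ 0.05), against 7.79% of all genes, and the same 7 had every *tmt2-S* value above every WT value, against 24.4% of all genes. Shares of all genes without overlap are on the scale of TMM-normalized CPM (counts scaled to library size), and these 7 members also did not overlap in FPKM. The median log2FC was 2.06 over the members and -0.01 over all genes tested. The members and the gene lists below were chosen with earlier results of these data known, so the shares beside them are only a description.

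*BCAT-2*, a mitochondrial branched-chain aminotransferase at the entry of the pathway, had the largest rise. Its FPKM was 8.63, 5.14 and 15.3 in the 3 WT libraries and 109, 162 and 369 in *tmt2-S*. The lowest *tmt2-S* library was several times above the highest WT library, and the 3 *tmt2-S* libraries also differed widely among themselves. The log2FC was 4.46 (SE 0.67, edgeR adjusted p = 0.000226), a 22.0-fold rise, and 0.508% of all genes had a larger log2FC. Without *tmt2-S* replicate 3 it was 3.77 (edgeR adjusted p = 0.000549), and over all alternatives the adjusted p was at most 0.00182.

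*BCE2*, the dihydrolipoyl acyltransferase core (E2) of the BCKDH complex, is also known as a gene induced in the dark. Its FPKM was 16.2, 19.0 and 31.2 in the WT and 46.9, 75.3 and 103 in *tmt2-S*. The groups did not overlap, and the log2FC was 1.76 (SE 0.29, edgeR adjusted p = 0.000422).

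*IVD*, which oxidizes isovaleryl-CoA from leucine, had the smallest p of the members. Its FPKM was 19.5, 15.8 and 31.5 in the WT and 179, 249 and 305 in *tmt2-S*. The groups were far apart and the spread was small beside the difference, with a log2FC of 3.44 (SE 0.28, edgeR adjusted p = 3.35e-06). By p, *IVD* ranked 125 among the 18506 genes.

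*MCCA* and *MCCB* encode the biotin-containing and the other subunit of methylcrotonyl-CoA carboxylase, the enzyme after IVD. The FPKM of *MCCA* was 32.4, 45.5 and 93.9 in the WT and 181, 228 and 319 in *tmt2-S*, with a log2FC of 2.09 (SE 0.40, edgeR adjusted p = 0.00114). That of *MCCB* was 18.9, 21.2 and 35.4 in the WT and 49.9, 84.5 and 145 in *tmt2-S*, with a log2FC of 1.88 (SE 0.34, edgeR adjusted p = 0.000733). Neither subunit overlapped between the groups. The ratio of *MCCB* to *MCCA* per library in the WT was 0.475 ± 0.103 (SD, n = 3), and it was 0.367 ± 0.0899 in the *tmt2-S* libraries. This difference was not larger than the spread allows (log2 ratio lower by 0.38, exact two-sided permutation test, p = 0.2, and 0.2 adjusted over 4 tests of ratios), and it shrank to -0.03 without replicate 1.

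*ETFQO*, the electron transfer flavoprotein:ubiquinone oxidoreductase, had an FPKM of 8.37, 10.8 and 18.2 in the WT and 32.1, 48.3 and 74.4 in *tmt2-S*. The groups did not overlap (log2FC 2.04, SE 0.33, edgeR adjusted p = 0.000382). *D2HGDH* had the smallest difference, and it was the member whose groups overlapped. Its FPKM was 4.13, 4.8 and 5.71 in the WT and 5.2, 8.98 and 8.65 in *tmt2-S*, with a log2FC of 0.61 (SE 0.21, edgeR adjusted p = 0.0356). The lowest *tmt2-S* library lay inside the WT range. The call was lost without *tmt2-S* replicate 2 (log2FC 0.48, edgeR adjusted p = 0.132) or 3 (0.47, adjusted p = 0.123) and without WT replicate 1 (0.53, adjusted p = 0.113) or 2 (0.61, adjusted p = 0.0842), and over all alternatives the adjusted p ran from 0.00273 to 0.132. In 8 of the 14 alternatives the call of *D2HGDH* was lost, also with limma on FPKM, with only the compared groups in the fit and with the replicate number as a block, so the count was then 7 and not 8. It was never fewer than 7.

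*LKR/SDH*, the first enzyme of lysine breakdown, had an FPKM of 9.01, 6.95 and 12.7 in the WT and 26.0, 38.6 and 62.3 in *tmt2-S*. All *tmt2-S* values lay above those of the WT, with a log2FC of 2.20 (SE 0.32, edgeR adjusted p = 0.000191). The rise of the lysine gene was thus close to those of *MCCA*, *MCCB*, *ETFQO* and *BCE2*, whose log2FC ran from 1.76 to 2.09 with SE of 0.29 to 0.40.

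**Figure D1:**
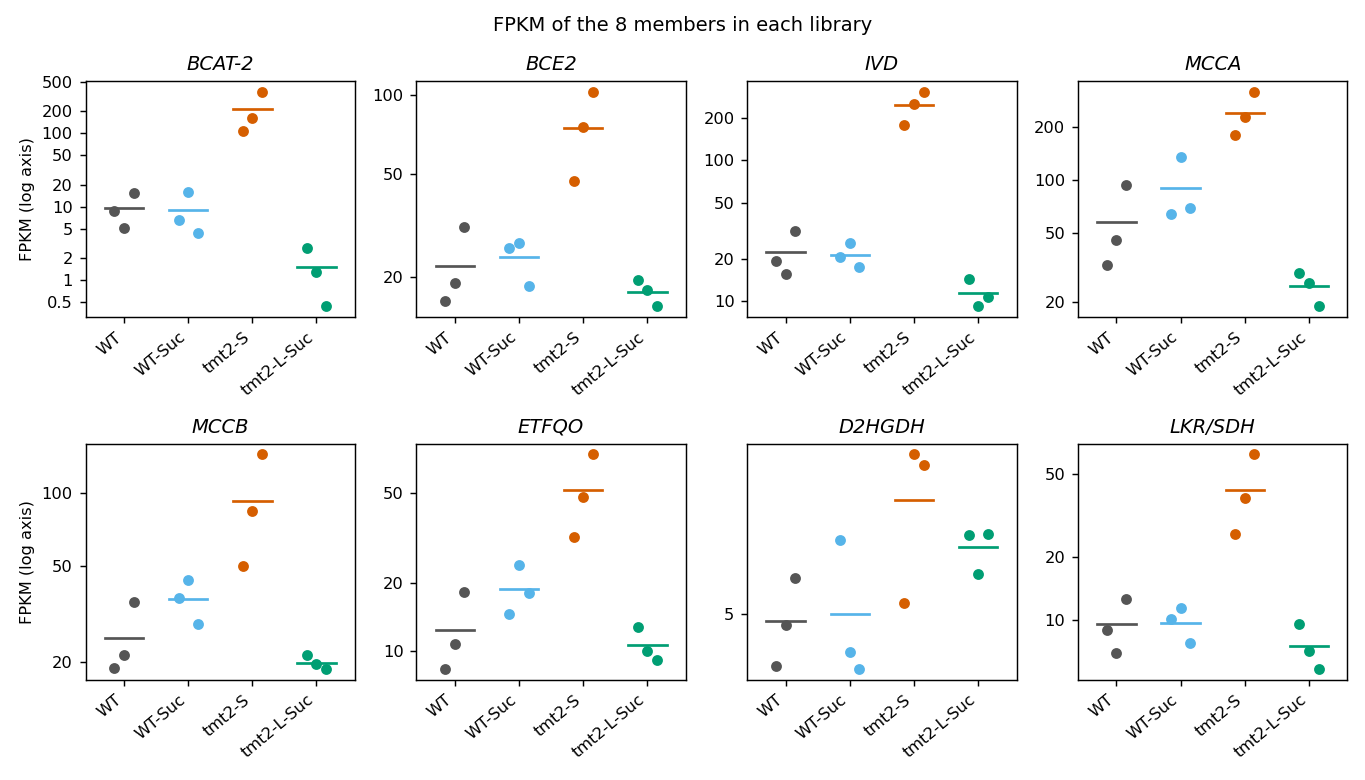
FPKM (log axis) of the 8 members in each of the 12 libraries, by group, with points for replicates 1 to 3 from left to right and a line at the group mean. In *tmt2-S*, 7 members lie above every WT library, *BCAT-2* at 109 to 369 against 5.14 to 15.3, while *D2HGDH* overlaps.

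Replicates of a group moved together over the members. In *tmt2-S*, replicate 1 was the lowest for 8 of 8 members and replicate 3 the highest for 7. In the WT, replicate 3 was the highest for 8 of 8, and in *tmt2-L-Suc*, replicate 1 was the highest for 7. The members are therefore not independent readings of a condition. Across the 12 libraries, the Pearson correlation of log2 CPM between a member and the mean of the other 7 was 0.911 to 0.996 for all but *D2HGDH*, for which it was 0.568. These libraries share the group differences above, so the values are a description.

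The effect of sucrose in *tmt2* was asked by setting *tmt2-S* against *tmt2-L-Suc*. It comes together with the younger age and with normal in place of arrested seedlings. With sucrose, 7 of the 8 members were lower, that is, 7 were higher in *tmt2-S* as DEGs and without overlap, against 25.7% of all genes called higher, 10.6% DEGs and 27.7% without overlap. The median log2FC was 2.48 over the members and -0.01 over all genes. The comparison shares the *tmt2-S* libraries with *tmt2-S*/WT and is no independent evidence of the rise there.

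*BCAT-2* again had the widest difference. Its FPKM in *tmt2-L-Suc* was 2.77, 1.28 and 0.44, from 77, 37 and 12 counts, against 109 to 369 in *tmt2-S*. The log2FC of *tmt2-S*/*tmt2-L-Suc* was 7.25 (SE 0.79, edgeR adjusted p = 1.51e-05), a 152-fold difference, and 0.135% of all genes had a larger one. It was 6.56 without *tmt2-S* replicate 3 and 7.97 without *tmt2-L-Suc* replicate 1.

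*IVD* had an FPKM of 14.4, 9.26 and 10.7 in *tmt2-L-Suc* and a log2FC of 4.50 (SE 0.30, edgeR adjusted p = 7.82e-07). *MCCA* had an FPKM of 29.2, 25.8 and 18.9 in *tmt2-L-Suc* and a log2FC of 3.38 (SE 0.42, edgeR adjusted p = 3.99e-05). In these dehydrogenase and carboxylase genes the *tmt2-L-Suc* libraries lay below each WT library. *LKR/SDH* (log2FC 2.60), *ETFQO* (2.35), *MCCB* (2.31) and *BCE2* (2.20) were also higher in *tmt2-S*, with edgeR adjusted p from 4.57e-05 to 0.000139. Their *tmt2-L-Suc* levels were 5.84 to 9.58 FPKM for *LKR/SDH*, 9.2 to 12.9 for *ETFQO*, 18.6 to 21.3 for *MCCB* and 15.5 to 19.6 for *BCE2*.

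*D2HGDH* did not pass the test here. Its FPKM was 6.68, 5.79 and 6.71 in *tmt2-L-Suc*, within the range of *tmt2-S*, and the log2FC was 0.32 (SE 0.21, edgeR adjusted p = 0.215). Without *tmt2-S* replicate 1 it passed, with a log2FC of 0.54 (edgeR adjusted p = 0.021), and over all alternatives the adjusted p ran from 0.021 to 0.52.

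**Figure D2:**
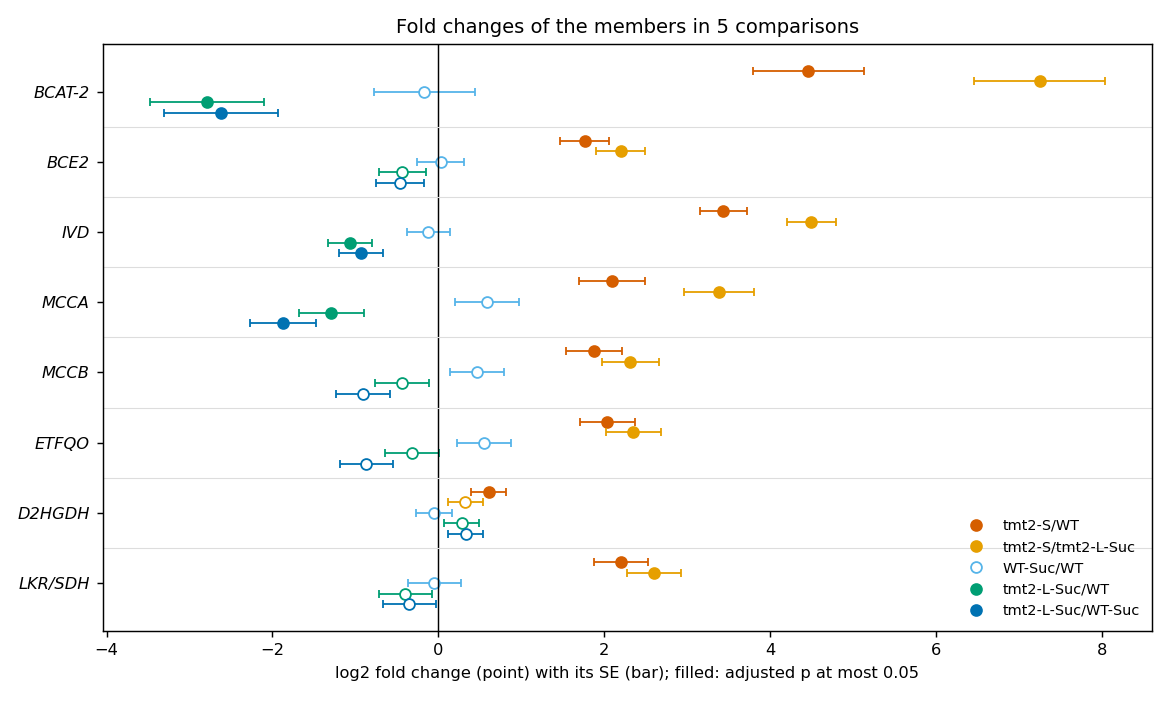
Log2 fold change of each member (point) with its SE (bar) in 5 comparisons, filled where the edgeR adjusted p was at most 0.05. The comparisons *tmt2-S*/WT and *tmt2-S*/*tmt2-L-Suc* lie to the right for 7 members, WT-Suc/WT lies near 0 with 0 of 8 filled, and both *tmt2-L-Suc* comparisons are filled on the left for *BCAT-2*, *IVD* and *MCCA*.

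Sucrose alone was compared in the WT, at the same age. In WT-Suc/WT, 0 of the 8 members passed the test, against 1.47% of all genes, and 0 had an unadjusted p under 0.05 in edgeR. DESeq2 and limma on FPKM also called 0. The log2FC ran from -0.17 (SE 0.61) for *BCAT-2* to 0.58 (SE 0.39) for *MCCA*, with edgeR adjusted p from 0.365 to 0.966. These SE do not exclude moderate changes in either direction.

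The FPKM of *MCCA* in WT-Suc was 63.6, 135 and 68.8, and that of *BCAT-2* was 6.69, 15.8 and 4.35. WT-Suc replicate 2, the library with the seed storage transcripts, was the highest of its group for 7 of 8 members. Without it the log2FC of WT-Suc/WT was 0.13 for *MCCA* and -0.89 for *BCAT-2*, and 0 members were called. *IVD* had 20.5, 25.9 and 17.6 FPKM in WT-Suc, all inside the WT range of 15.8 to 31.5. *LKR/SDH* had 10.08, 11.4 and 7.76 and *BCE2* 25.9, 27.2 and 18.6, also inside their WT ranges.

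The effect of sucrose in *tmt2* was set against its effect in the WT as an interaction in the same model. It was more negative in *tmt2* for 7 of the 8 members, against 16.6% of all genes, and this number was 7 under every alternative tried. The interaction was -7.08 (SE 0.95) for *BCAT-2*, -4.37 (SE 0.38) for *IVD* and -3.97 (SE 0.56) for *MCCA* on the log2 scale, with edgeR adjusted p from 3.03e-05 to 0.000369. *ETFQO* (-2.90), *MCCB* (-2.78), *LKR/SDH* (-2.55) and *BCE2* (-2.23) followed, with edgeR adjusted p from 0.000711 to 0.0015. For *D2HGDH* it was -0.27 (SE 0.30, edgeR adjusted p = 0.508). For *BCAT-2* it was -7.80 without *tmt2-L-Suc* replicate 1 and -6.36 without WT-Suc replicate 2. Since *tmt2-S* was older and arrested, its age and its arrest enter this contrast.

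In *tmt2-L-Suc*, *BCAT-2*, *MCCA* and *IVD* were lower than in the WT at the same age, so 3 of 8 members fell, against 6.97% of all genes called lower. These 2 groups differed in genotype and in sucrose, which cannot be told apart in this comparison. *BCAT-2* had a log2FC here of -2.79 (SE 0.69, edgeR adjusted p = 0.0213), *MCCA* of -1.29 (SE 0.39, edgeR adjusted p = 0.05) and *IVD* of -1.06 (SE 0.27, edgeR adjusted p = 0.0227). In FPKM these 3 had every *tmt2-L-Suc* value below every WT value. In CPM *MCCB* did as well, making 4 members, against 18.7% of all genes, whereas in FPKM its groups overlapped. *D2HGDH* went the opposite way, with every *tmt2-L-Suc* value above every WT value on both scales, against 18.6% of all genes, although it did not pass the test. The values of the other 5 ran from -0.44 (*MCCB*) to 0.28 (*D2HGDH*), with edgeR adjusted p from 0.353 to 0.574. The log2FC of *BCAT-2* was -3.51 without *tmt2-L-Suc* replicate 1. These calls were not stable when a library was left out. Without WT replicate 3, *tmt2-L-Suc* replicate 2 or *tmt2-L-Suc* replicate 3, 0 members were called. *MCCA* was at the threshold and also lost its call without *tmt2-L-Suc* replicate 1 (edgeR adjusted p = 0.11) and without WT replicate 2 (0.0723), with a range of 0.00851 to 0.214 over all alternatives.

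Against WT-Suc, which had the same medium and age, the same 3 genes were lower in *tmt2-L-Suc*, against 10.4% of all genes. The log2FC was -2.62 (SE 0.69, edgeR adjusted p = 0.0193) for *BCAT-2*, -1.88 (SE 0.40, edgeR adjusted p = 0.00708) for *MCCA* and -0.94 (SE 0.26, edgeR adjusted p = 0.0266) for *IVD*. *MCCB* (-0.91, adjusted p = 0.0687) and *ETFQO* (-0.87, adjusted p = 0.0755) did not pass in edgeR, and both passed in DESeq2, which called 5 members. In FPKM *tmt2-L-Suc* lay below WT-Suc without overlap for *BCAT-2*, *MCCA*, *IVD*, *MCCB* and *ETFQO*. In CPM *BCE2* did as well, making 6, against 21% of all genes, whereas in FPKM its groups overlapped. Without *tmt2-L-Suc* replicate 1 the log2FC of *BCAT-2* was -3.34. Only *MCCA* was called without WT-Suc replicate 2 (log2FC -1.42, edgeR adjusted p = 0.0377), when *BCAT-2* was at -1.90 (0.1) and *IVD* at -0.75 (0.124). The count was also 1 without *tmt2-L-Suc* replicate 2 or 3. The part of the seed storage transcripts of WT-Suc replicate 2 in this comparison was not tested beyond leaving that library out.

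By the exact two-sided permutation test on FPKM, which cannot go below p = 0.1 with 3 libraries against 3, 7 members were at that limit in *tmt2-S*/WT, 7 in *tmt2-S*/*tmt2-L-Suc*, 0 in WT-Suc/WT, 4 in *tmt2-L-Suc*/WT and 5 in *tmt2-L-Suc*/WT-Suc. The 4 were *BCAT-2*, *MCCA* and *IVD*, lower in *tmt2-L-Suc*, and *D2HGDH*, higher in it. Over the 40 tests the adjusted value at the limit was 0.174. The limit is reached when the groups do not overlap, and the share of all genes at it was not computed. In CPM, 24.4% of all genes were higher without overlap in *tmt2-S*/WT and 27.7% in *tmt2-S*/*tmt2-L-Suc*. In *tmt2-L-Suc*/WT 18.6% were higher and 18.7% lower without overlap, and in *tmt2-L-Suc*/WT-Suc 21% were lower. In order of mean FPKM, *tmt2-S* was the highest group for 8 of 8 members and *tmt2-L-Suc* the lowest for 7. The WT and WT-Suc, which were neighbours in this order, overlapped for every member, and for *D2HGDH* *tmt2-L-Suc* overlapped both its neighbours *tmt2-S* and WT-Suc. The lowest place of *tmt2-L-Suc* was separated from its neighbour for *BCAT-2*, *IVD* and *MCCA*, but its values overlapped those of the WT for *MCCB*, *BCE2*, *ETFQO* and *LKR/SDH*.

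The transaminases showed a change of the leading gene. The 7 *BCAT* genes include those of the first step of breakdown, the last step of synthesis and the chain elongation of methionine. *BCAT7* had at most 0.05 FPKM in any library. Of the 6 tested in *tmt2-S*/WT, *BCAT-2* was the single one to rise. *BCAT3*, a plastid enzyme of synthesis, fell from 54.7, 43.9 and 33.5 FPKM in the WT to 30.8, 22.8 and 20.3 (log2FC -0.86, SE 0.21, edgeR adjusted p = 0.00569), and *BCAT6* fell (-1.62, SE 0.39, adjusted p = 0.00516). *BCAT4*, which acts in the chain elongation of methionine, had 319, 131 and 56 counts in the WT and 17, 0 and 0 in *tmt2-S* (edgeR adjusted p = 0.0019), and it shares 21.2% of its exon bases with a gene on the opposite strand. *BCAT1* (log2FC 0.50, SE 0.26, adjusted p = 0.147), the mitochondrial neighbour of *BCAT-2*, and *BCAT5* (0.01, SE 0.13, adjusted p = 0.978) did not pass.

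As a share of the summed FPKM of the *BCAT* genes, *BCAT-2* held 8.81, 6.94 and 21.5% in the WT and 67.8, 78.5 and 90.3% in *tmt2-S*. It held 3.91, 1.91 and 0.573% in *tmt2-L-Suc*. *BCAT-2* thus went from a minor to the main *BCAT* transcript in *tmt2-S*, a difference of 66.4 percentage points from the WT and 76.7 from *tmt2-L-Suc* (exact two-sided permutation tests, p = 0.1 each, the smallest possible, and 0.133 adjusted over 4 tests). Summed over the other *BCAT* genes, the FPKM was 71.3 ± 17.0 (SD, n = 3) in the WT and 45.4 ± 6.1 in *tmt2-S*. The ratio of *MCCB* to *MCCA* was 0.823 ± 0.14 in *tmt2-L-Suc*, above each value of *tmt2-S* (log2 ratio of *tmt2-S*/*tmt2-L-Suc* -1.18, exact permutation p = 0.1, adjusted 0.133).

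**Figure D3:**
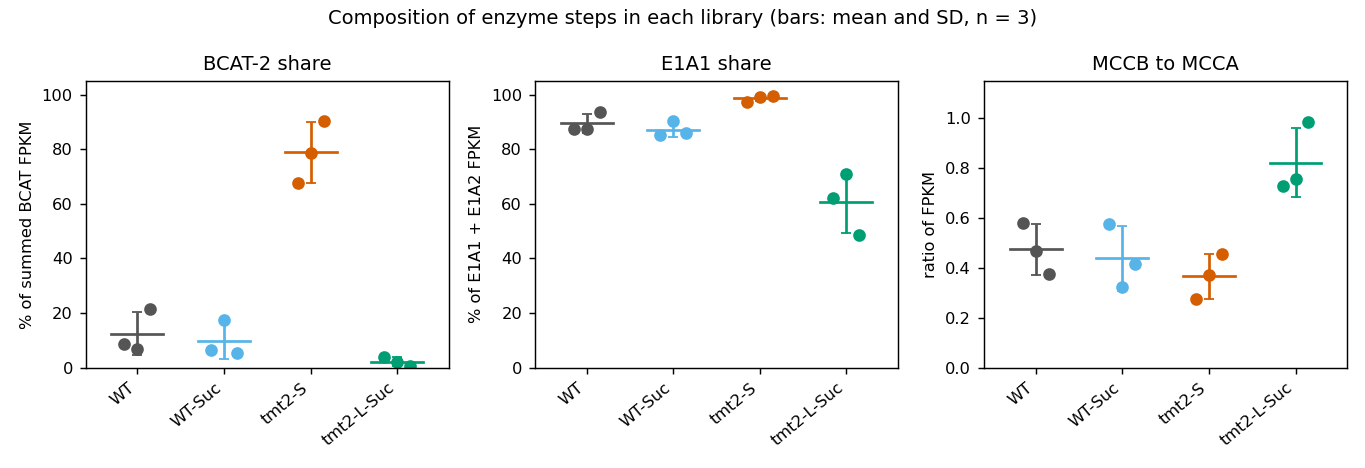
Share of *BCAT-2* in the summed FPKM of the *BCAT* genes, share of *E1A1* in the E1 alpha genes, and ratio of *MCCB* to *MCCA* FPKM, per library (points) with the group mean and SD (n = 3). *BCAT-2* holds 67.8 to 90.3% in *tmt2-S* and at most 21.5% elsewhere.

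The BCKDH complex has E1 alpha, E1 beta, E2 and E3 subunits, and the calls differed between genes of the same subunit for E1 alpha and E3 but not for E1 beta. The difference between such genes was not tested. *E1A1* rose from 16.9, 14.4 and 26.4 FPKM in the WT to 153, 220 and 305 in *tmt2-S* (log2FC 3.53, SE 0.33, edgeR adjusted p = 8.21e-06). The other E1 alpha gene, *E1A2*, had 2.44, 2.09 and 1.81 FPKM in the WT and 3.92, 1.6 and 1.32 in *tmt2-S* (log2FC 0.03, SE 0.35, edgeR adjusted p = 0.963). *E1A1* already held 87.4 to 93.6% of the E1 alpha FPKM in the WT, and it held 97.5 to 99.6% in *tmt2-S* and 48.7 to 70.9% in *tmt2-L-Suc*. Both E1 beta genes rose, *E1B1* (also *DIN4*) by a log2FC of 1.92 (SE 0.34, edgeR adjusted p = 0.00068) and *E1B2* by 1.59 (SE 0.28, edgeR adjusted p = 0.000617). Their transcripts were 83.5% identical over 1130 bases, and how the counting divided the reads between them is uncertain. *E1B2* also shares 18.5% of its exon bases with a gene on the opposite strand. Of the E3 genes, which other complexes also use, *mtLPD2* rose (1.02, SE 0.14, edgeR adjusted p = 0.000129), and the more abundant *mtLPD1* did not pass (-0.20, SE 0.19, edgeR adjusted p = 0.426). *mtLPD2* was also higher in *tmt2-L-Suc* than in the WT (0.72, edgeR adjusted p = 0.00785). It did not pass in *tmt2-S*/*tmt2-L-Suc* (0.31, edgeR adjusted p = 0.0821).

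Of 16 other genes of branched-chain amino acid breakdown, which include these BCKDH genes and *BCAT1*, 8 were higher and 0 lower in *tmt2-S*/WT, against 20.7% of all genes called higher and 22.6% lower. Their median log2FC was 0.73. *HML1*, the hydroxymethylglutaryl-CoA lyase that ends the leucine branch, rose from 31.8 to 36.4 FPKM in the WT to 68.8 to 91.3 (log2FC 1.21, SE 0.15, edgeR adjusted p = 6.99e-05). *ETFB*, a subunit of the electron transfer flavoprotein, rose (0.97, SE 0.17, edgeR adjusted p = 0.000667), whereas its partner *ETFA* had 5.92, 6.94 and 7.3 FPKM in the WT and 4.93, 5.82 and 5.5 in *tmt2-S* (-0.35, SE 0.16, edgeR adjusted p = 0.0912). The remaining risen genes were *ALDH6B2* (1.58) and *ACX4* (1.08), placed in the valine branch here and named after their values were seen. Whether *ACX4* acts on valine products in these seedlings was not tested. In WT-Suc/WT, 0 of the 16 passed, against 1.47% of all genes, with log2FC from -0.40 to 0.83. In *tmt2-S*/*tmt2-L-Suc* 7 were higher and 1 lower, against 25.7% and 25.8% of all genes.

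**Figure D4:**
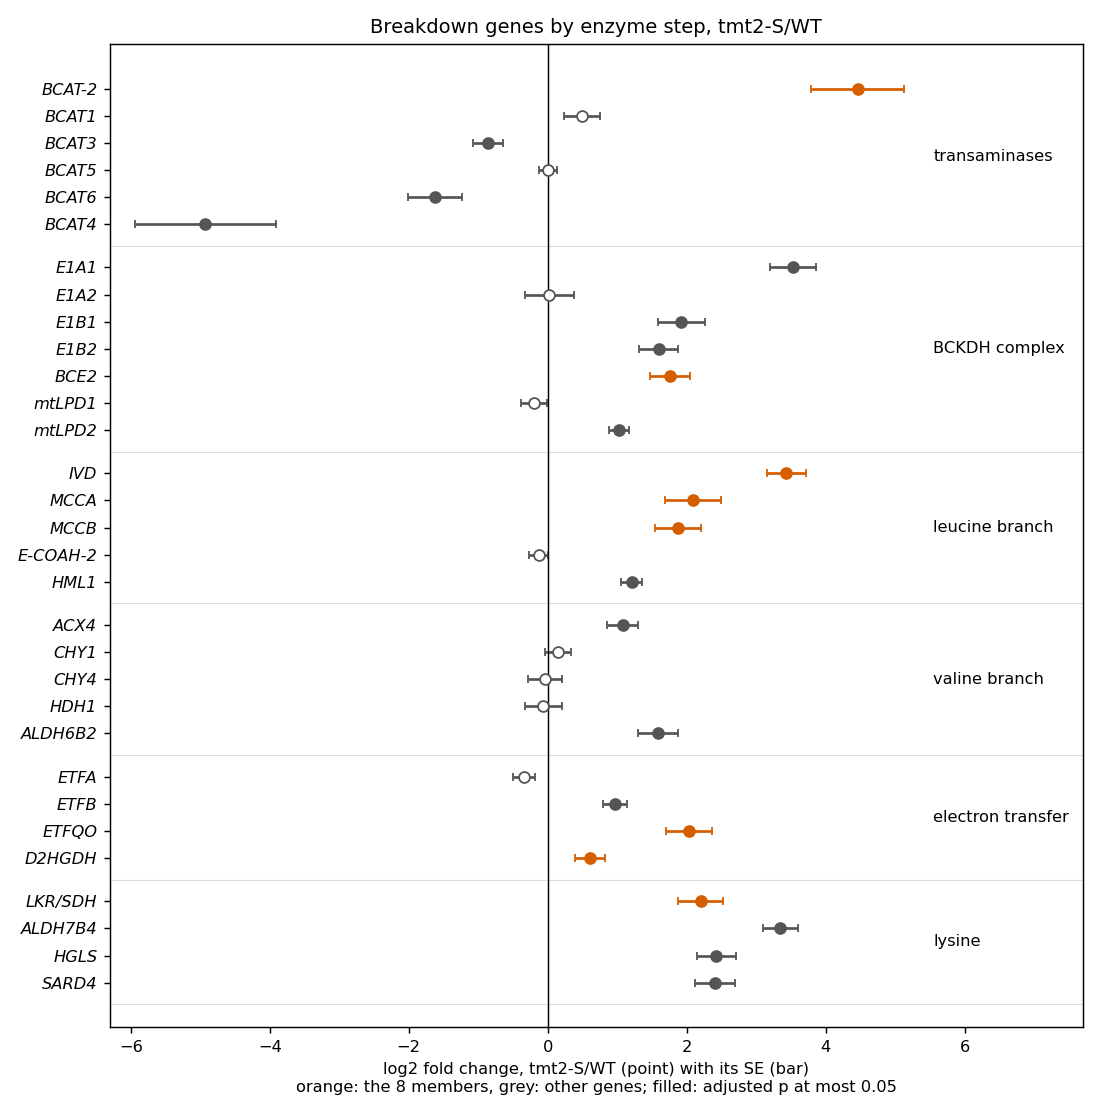
Log2 fold change of *tmt2-S*/WT (point) with its SE (bar) for genes of breakdown by enzyme step, orange for the 8 members and grey for other genes, filled where the edgeR adjusted p was at most 0.05. *BCAT-2*, *E1A1*, *IVD* and *ALDH7B4* lie above 3, while *E1A2*, *mtLPD1* and *ETFA* are open points near 0.

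Lysine breakdown had 5 further genes on the list, and all 3 with enough counts were higher in *tmt2-S*/WT, against 20.7% of all genes, with a median log2FC of 2.43. *ALDH7B4*, the aminoadipate semialdehyde dehydrogenase that follows LKR/SDH, had 15.6, 13.0 and 21.8 FPKM in the WT and 117, 171 and 228 in *tmt2-S* (log2FC 3.35, SE 0.25, edgeR adjusted p = 2.29e-06). *HGLS*, the 2-hydroxyglutarate synthase that forms the substrate of D2HGDH, had 6.21, 5.54 and 7.21 FPKM in the WT and 21, 29.9 and 52.9 in *tmt2-S* (2.43, SE 0.28, edgeR adjusted p = 3.17e-05). Both had no overlap between the groups, unlike *D2HGDH*, and the difference between their log2FC and that of *D2HGDH* was not tested. *SARD4*, a reductase of the route from lysine to pipecolate, rose from 4.59 to 5.27 FPKM to 14.9 to 35.6 (2.41, SE 0.29, edgeR adjusted p = 4.14e-05). *ALD1* and *FMO1*, the other pipecolate genes, were at 0.34 FPKM or less in every library and were not tested. All 3 tested genes were also higher in *tmt2-S* than in *tmt2-L-Suc*, against 25.7% of all genes. In WT-Suc/WT, 0 of the 3 passed, against 1.47% of all genes.

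**Figure D5:**
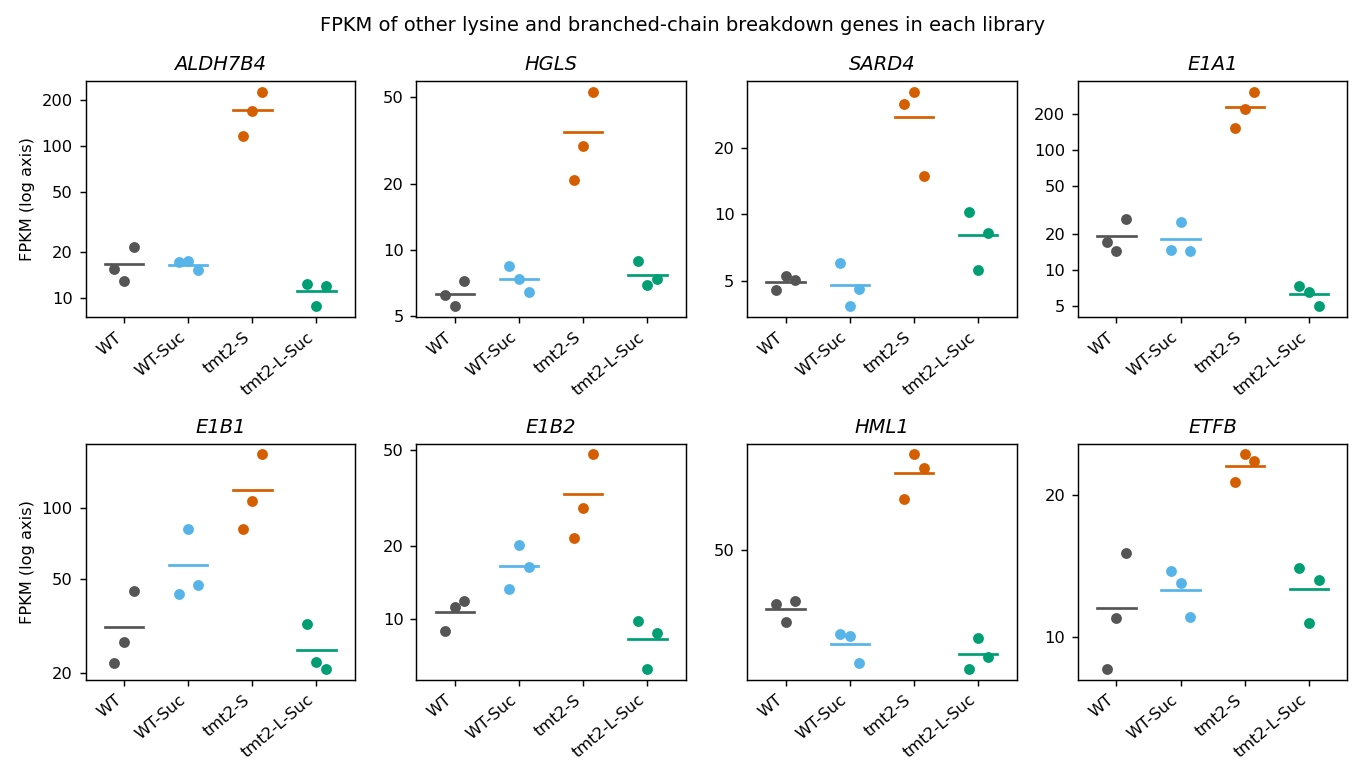
FPKM (log axis) of 8 other genes of lysine and branched-chain amino acid breakdown per library, with points for replicates 1 to 3 and a line at the group mean. *ALDH7B4* is at 117 to 228 in *tmt2-S* and at most 21.8 elsewhere.

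The lists of synthesis genes for the same amino acids had calls in both directions, at shares near those over all genes. Of 17 genes of branched-chain amino acid synthesis, 3 were higher and 4 lower in *tmt2-S*/WT, against 20.7% and 22.6% of all genes, with a median log2FC of 0.005. *OMR1*, the threonine deaminase of isoleucine synthesis, rose by 1.11 (SE 0.19, edgeR adjusted p = 0.000549), *AHASS2*, a regulatory subunit of acetolactate synthase, by 0.91 (SE 0.27, adjusted p = 0.0152) and *IPMS1*, of leucine synthesis, by 0.40 (SE 0.14, adjusted p = 0.0373). The largest falls were those of *IPMI-SSU2*, *IPMI-SSU3* and *IPMDH1*, isoforms known to act in methionine chain elongation for glucosinolates. Only *BCAT3* was called lower among the remaining genes of this list. *IPMI-SSU2* had 961, 475 and 352 counts in the WT and 21, 4 and 0 in *tmt2-S* (edgeR adjusted p = 5.35e-05). Of 12 genes of lysine synthesis, 2 were higher and 3 lower, against the same 20.7% and 22.6%. *DHDPS2*, for the entry enzyme of the lysine branch, rose by 0.95 (SE 0.25, edgeR adjusted p = 0.00895) and *AK-LYS1*, an aspartate kinase, by 0.90 (SE 0.12, adjusted p = 6.67e-05). *AK3*, another aspartate kinase, fell from 210, 109 and 32 counts to 18, 1 and 0 (adjusted p = 0.00433), *DHDPR3* by 0.71 (SE 0.18, adjusted p = 0.00641) and *AK-LYS2* by 0.54 (SE 0.16, adjusted p = 0.0151) on the log2 scale. Genes on the opposite strand share 49.7% of the exon bases of *AK3*, 56.9% of those of *DHDPR3* and 15.5% of those of *AK-LYS1*.

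The breakdown of other amino acids was also measured. Of 16 genes, 12 were higher and 2 lower in *tmt2-S*/WT, against 20.7% and 22.6% of all genes. In *tmt2-S*/*tmt2-L-Suc*, 13 were higher and 2 lower, against 25.7% and 25.8%. Their median log2FC was 1.56 in *tmt2-S*/WT and 2.44 in *tmt2-S*/*tmt2-L-Suc*, beside 2.06 and 2.48 over the members. *THA1*, a threonine aldolase, had 18.9, 15.6 and 43.6 FPKM in the WT and 311, 702 and 1177 in *tmt2-S* (log2FC 4.80, SE 0.54, edgeR adjusted p = 2.8e-05). *ERD5*, the proline dehydrogenase, rose by 2.91 (SE 0.48, edgeR adjusted p = 0.000413) and *TAT7*, a tyrosine aminotransferase, by 2.60 (SE 0.24, edgeR adjusted p = 7.48e-06). *URE*, the urease, fell by 0.86 (SE 0.16, edgeR adjusted p = 9e-04) and *FAH*, of tyrosine breakdown, by 0.45 (SE 0.12, edgeR adjusted p = 0.0105) on the log2 scale.

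The 5 other genes whose log2 CPM was most like the mean standardised profile of the 8 members over the 12 libraries were *CPK9*, *AT1G18270*, *KNAT5*, *IWS1* and *AT1G14890*, with Pearson correlations of 0.989 to 0.983 among 18498 genes. Their FPKM was also the highest in *tmt2-S*, at 11.5 to 17.9 for *CPK9*, a calcium-dependent protein kinase, against 6.37 to 10.05 elsewhere. Of the listed genes, the highest was *GDH2*, a glutamate dehydrogenase named after its values were seen, at rank 30 with 0.972. *ALDH6B2* ranked 37 with 0.97, *ALDH7B4* ranked 45 with 0.968 and *E1A1* ranked 47 with 0.966. The points share the group differences and the libraries, so the ranks are a description with no test.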

How the data were processed

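Above-ground tissue of 12 seedling samples was sequenced after poly(A) selection. The authors used Bowtie2 for alignment to TAIR10.1 and RSEM for quantification. The deposited expected counts are not normalized and were rounded to whole numbers here, and the deposited FPKM values were scaled by the authors to transcript length and depth. The 12 columns of TPM and 12 columns of averages were not used. Groups were taken from the labels.

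Genes were kept with filterByExpr (18506 of 22953), scaled by TMM and fitted with a quasi-likelihood model of 1 mean per group in edgeR 4.0.16 (R 4.3.3). The F-tests are two-sided, and p was adjusted by Benjamini-Hochberg over all genes tested. The SE is the log2FC divided by the square root of F. The model was tested on simulated data. FPKM was compared with exact permutation tests (scipy). Transcripts were compared with blastn, and motifs were searched in 250 bases before each gene. Gene positions come from the TAIR10.1 annotation. The labels give no batch.

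The members and the lists were chosen with earlier results of these data known. Named are the members, the 3 largest calls in each direction of every other list in *tmt2-S*/WT, BCKDH subunits, *ETFA*, *ETFB*, *HML1*, *ALDH7B4* and the *BCAT* genes. The marker lists (shoot, root, seed storage) check the tissue. Some genes are in more than 1 list (*BCAT1*, *BCAT3* and *BCAT5*). A gene of lysine breakdown is not reported here. The alternatives were median-of-ratios scaling, DESeq2 1.42.0, no filter, at least 10 counts in every library, the replicate number as a block, only the 2 groups compared, limma 3.58.1 on log2(FPKM + 1) or log2(FPKM + 0.1), and each library left out.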

Additional observations from a re-analysis of the deposited data

Results flagged for a closer look

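The effect of sucrose differed between *tmt2* and the WT for 7 members, by the interaction term of the edgeR model. The interaction (effect in *tmt2* minus effect in the WT, log2 scale) was -7.08 for *BCAT-2*, -4.37 for *IVD*, -3.97 for *MCCA*, -2.90 for *ETFQO*, -2.78 for *MCCB*, -2.55 for *LKR/SDH* and -2.23 for *BCE2*, with adjusted p from 3.03e-05 to 0.0015. The *tmt2* group without sucrose was also older and arrested before true leaves, so sucrose, age and arrest cannot be told apart in it. With 3 libraries per group, no library was tested for standing apart from its own group.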

How the results depend on the processing

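The 7 calls of *tmt2-S*/WT without *D2HGDH*, the 7 of *tmt2-S*/*tmt2-L-Suc* and the 7 of the interaction kept their direction and threshold under all alternatives run, and the count in WT-Suc/WT was 0 under all of them. In *tmt2-L-Suc*/WT, limma called 1 member with either pseudocount, and leaving out each library gave 0 to 3. In *tmt2-L-Suc*/WT-Suc, DESeq2 called 5, the fit of only the 2 groups called 5, and leaving out each library gave 1 to 4. The *MCCB* to *MCCA* log2 ratio of *tmt2-S*/WT lay between -0.705 and -0.0291 when each replicate was left out.

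Values near 0 changed sign. In WT-Suc/WT, limma with a pseudocount of 1 or 0.1 gave 0.014 for *D2HGDH* and 0.048 or 0.054 for *LKR/SDH*. With each library left out, the log2FC of WT-Suc/WT ran from -0.885 to 0.244 for *BCAT-2*, -0.125 to 0.311 for *BCE2*, -0.241 to 0.058 for *D2HGDH*, -0.310 to 0.159 for *IVD* and -0.229 to 0.173 for *LKR/SDH*, and that of *tmt2-L-Suc*/WT from -0.508 to 0.009 for *ETFQO*. The cause was not tested.

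In no pair of groups were the 3 correlations of same-numbered deviations all above 0.1 (mean -0.23 to 0.153). At most 4 of the 6 libraries of a pair of groups correlated best with their own number. That pair was the WT and *tmt2-S*, where the correlation for replicate 3 was 0.331. Whether libraries with the same number shared a batch was not tested beyond these values and the block. With the replicate block, *tmt2-S*/WT called 7 members and *tmt2-L-Suc*/WT called 2. *D2HGDH* had a log2FC of 0.60 (adjusted p = 0.0587) and *MCCA* of -1.19 (0.075), and the block changed no other call.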
